A study of Saccharomyces cerevisiae with 13 samples.

Results

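FT30-3, a strain of Saccharomyces cerevisiae adapted by evolution to high furfural, was compared at 36 mM and at 15 mM furfural in the feed of its chemostat. The comparison rests on 6 of the 13 arrays of the series, 3 at 36 mM and 3 at 15 mM, and its arrays are set by the labelled strain and dose. The other arrays held FT30-3 at 25 mM (n = 2) and the less resistant parent strain, TMB3400, at 25 mM (n = 3) and 15 mM (n = 2). These 7 arrays entered the fit for its estimate of spread. All cultures were glucose-limited and micro-aerobic, and the design text of the series calls the replicates biological. FT30-3 is a single adapted strain, no culture without furfural was analysed here, and TMB3400 washed out of the chemostat at 36 mM, per the labels' protocols.

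Furfural is an aldehyde that forms when plant biomass is broken down for fermentation, and it inhibits yeast growth. Yeast reduces it to the less toxic furfuryl alcohol with dehydrogenases and reductases, many of which use NADPH. Yeast short of iron switches on transporters for iron bound to siderophores, which are iron chelators made by other microbes, together with reductases that free ferric iron at the cell surface. Glucose-limited yeast transcribes genes for the use of ethanol, acetate and lactate, and for scavenging other nutrients, that are kept low when glucose or the preferred nutrient is plentiful.

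Intensities are on a linear scale after the arrays were set to a common median. Changes are log2 values, 36 mM minus 15 mM, ± standard error, with adjusted p from limma over 5449 genes and a threshold of 0.05. Background was read from 1746 probe sets for another yeast, Schizosaccharomyces pombe, and their 95th percentile was between 31.2 and 39.0 on these 6 arrays, while S. cerevisiae probe sets had medians of 1412 to 1663. Before centring, all changes were higher by 0.20 on the log2 scale. Replicate 1 at 36 mM stood apart from the other two. It correlated at r = 0.969 and 0.965 across genes with replicates 2 and 3, which correlated at 0.995 with each other, and the 15 mM arrays correlated at 0.989 to 0.994. It was lower than the mean of replicates 2 and 3 by over 1 log2 unit in 216 genes and higher in 5, while replicates 2 and 3 differed by as much in 23 genes.

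The 216 genes had a median coding length of 532.5 bases, against 1236 for all genes. Genes of up to 300 bases had a median log2 difference of -0.49 between replicate 1 and the mean of replicates 2 and 3 (243 genes), and genes over 300 and up to 500 bases one of -0.28 (416 genes). It was 0.16 in genes over 1000 and up to 2000 bases (2134 genes) and 0.23 in genes over 4000 bases (188 genes). Replicate 2 minus replicate 3 varied far less with length, with medians between -0.06 and 0.02 in all 6 length classes. These medians ran in the same direction up to 4000 bases, from -0.06 in genes of up to 300 bases to 0.02 in genes over 2000 and up to 4000. Over 4000 bases the median was -0.03. The part of replicate 1 at 36 mM in the results below was not tested beyond leaving it out. The count of a whole list is given without this array where it changed. Counts for parts of a list are given without it only in places.

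**Figure D1:**
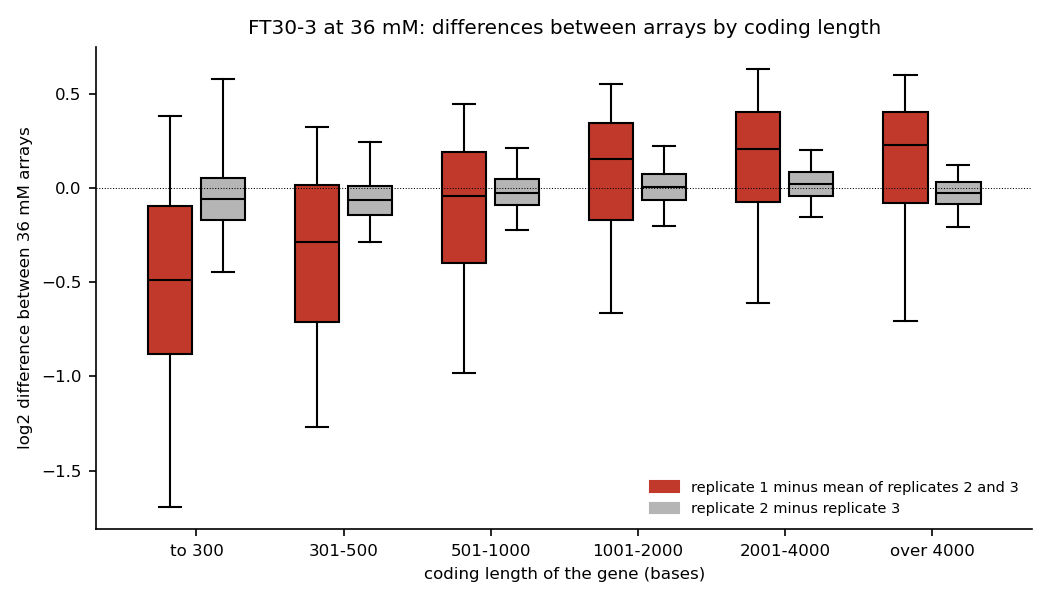
Log2 differences between the 36 mM arrays of FT30-3, by coding length in bases; boxes hold the quartiles, lines the medians and whiskers the 5th to 95th percentiles of genes. Replicate 1 minus the mean of replicates 2 and 3 (red) runs from a median of -0.49 in the shortest genes to 0.23 in the longest, while replicate 2 minus replicate 3 (grey) stays near 0.

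At 36 mM, 600 genes were higher (11% of those tested) and 611 lower (11.2%) than at 15 mM, 1211 in all (22.2%). Of these, 96 were higher and 88 lower by over 2-fold. The arrays of the 2 groups did not overlap in 594 of the 600 higher genes and in 608 of the 611 lower ones, and over all 5449 genes in 41.7%. Without replicate 1 at 36 mM, 602 genes were higher and 684 lower, and 485 of the 600 and 507 of the 611 were among them. The count was 736 without replicate 1 at 15 mM and 777 without replicate 2 at 15 mM. The arrays compare shares of the RNA, so less of a messenger per cell and more of all other RNA cannot be told apart. Before centring, 1494 genes were higher and 257 lower, so the split between higher and lower genes depends on the scaling, with 85.3% higher before centring and 49.5% after it. Among probe sets for S. pombe, a species not in these cultures, 9.11% were also called, 31 higher and 128 lower, with a median change of -0.24. Before centring, 6.3% of them were called, 37 higher and 73 lower, with a median change of -0.04.

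**Figure D2:**
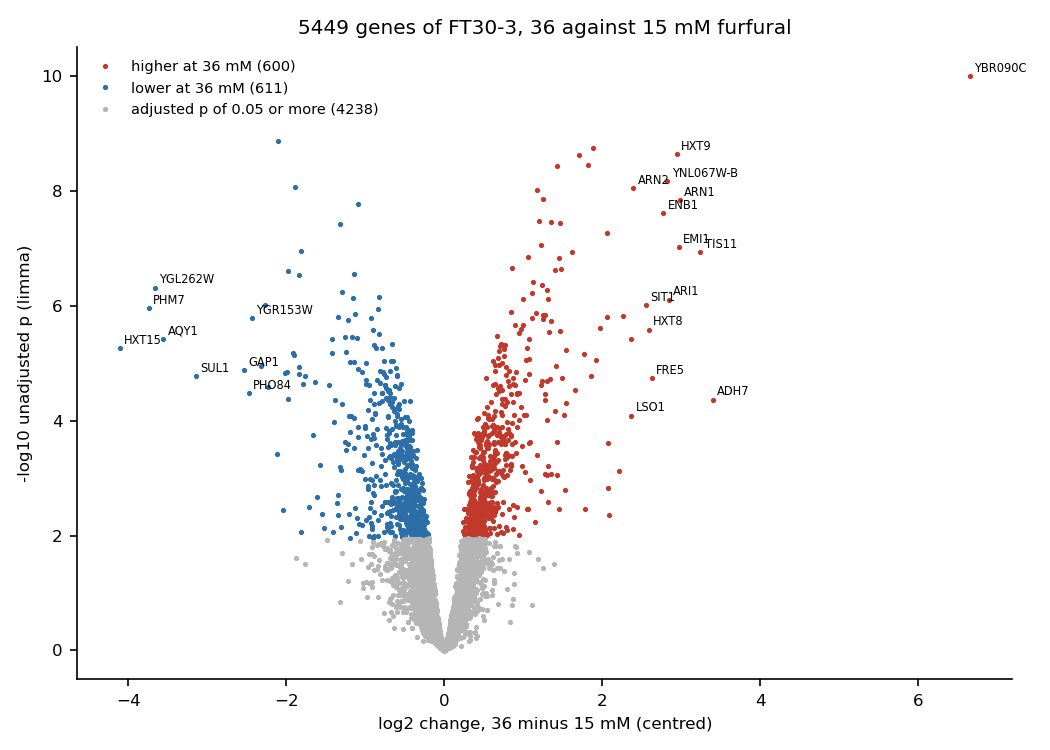
Log2 change at 36 against 15 mM furfural (horizontal axis) and -log10 of the unadjusted p from limma (vertical axis) for 5449 genes of FT30-3; 600 genes were higher (red) and 611 lower (blue). The named points are among those with the largest fitted changes. Fitted changes are not exact where arrays are at background, as YBR090C is on all 3 arrays at 15 mM and HXT15 on 2 of 3 at 36 mM.

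Genes for the reduction and oxidation of aldehydes include those known to act on furfural. Of 28 measured, 13 rose and 1 fell, against 11% higher and 11.2% lower over all genes, and their median was 0.24 against -0.03 over all genes (11 higher and 2 lower without replicate 1 at 36 mM). ADH7, an NADPH-dependent alcohol dehydrogenase of the medium-chain family (systematic name YCR105W, chromosome III), read 13439, 11578 and 10996 at 36 mM, against 1483, 1226 and 804 at 15 mM. The groups were far apart, and the change was 3.40 ± 0.52, adjusted p = 0.00121. ADH6, its close relative, read 10468, 8976 and 9078 at 36 mM, against 9873, 9073 and 8992 at 15 mM. Its groups overlapped, and it did not pass (0.03 ± 0.09, adjusted p = 0.852). SFA1, the glutathione-dependent formaldehyde dehydrogenase, rose by 0.49 ± 0.10, adjusted p = 0.00571.

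All 5 short-chain dehydrogenases of the list rose, and their median was 1.07 (4 of 5 without replicate 1 at 36 mM). ARI1, an NADPH-dependent aldehyde reductase (YGL157W, chromosome VII), read 5107, 3170.3 and 3586 at 36 mM, against 651, 491 and 493 at 15 mM, a change of 2.84 ± 0.29, adjusted p = 9.67e-05. Replicate 1 at 36 mM was the highest of the 6 arrays, and the other two stood well above the 15 mM arrays too. GRE2, a methylglyoxal reductase (YOL151W, chromosome XV), read 12544, 11486 and 11342 at 36 mM, against 3043, 3150.3 and 3869 at 15 mM (1.82 ± 0.11, adjusted p = 2.88e-06). YLL056C, an uncharacterised member, read 13772, 12331 and 14091 at 36 mM, against 7856, 5878 and 5544 at 15 mM (1.07 ± 0.15, adjusted p = 0.000639). YDR541C read 428, 363 and 386 at 36 mM, against 254, 225 and 206 at 15 mM (0.78 ± 0.11, adjusted p = 0.000651). In GRE2, YLL056C and YDR541C the lowest 36 mM array lay above the highest 15 mM array. YGL039W rose by 0.48 ± 0.14, and it is the one that did not pass without replicate 1 at 36 mM. Its call was past the threshold in all but 6 alternatives, with adjusted p up to 0.131.

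Both old yellow enzyme genes, which encode NADPH dehydrogenases, rose. OYE3 read 11350, 12625 and 12333 at 36 mM, against 5159, 6465 and 6728 at 15 mM (0.99 ± 0.11, adjusted p = 0.000186). OYE2 read 13918, 13403 and 12895 at 36 mM, against 7572, 10625 and 10364 at 15 mM (0.51 ± 0.13, adjusted p = 0.019), past the threshold in all but 2 alternatives, with adjusted p up to 0.0648. Among 6 aldo-keto reductases, YPR1 (0.57 ± 0.10, adjusted p = 0.00203) and GCY1 (0.29 ± 0.08, adjusted p = 0.0297) rose, GCY1 past the threshold in all but 4 alternatives, with adjusted p up to 0.111, while GRE3, the main aldose reductase, read 5717, 4641 and 4725 at 36 mM, against 5366, 4098 and 5143 at 15 mM with overlapping groups (0.05 ± 0.13, adjusted p = 0.803). Of 5 aryl-alcohol dehydrogenases, AAD3 and AAD4 rose by 0.60 ± 0.17 and 0.37 ± 0.09 (only AAD4 of the pair without replicate 1 at 36 mM), but their probe sets are of a kind that can share signal within the family. AAD3 was past the threshold in all but 4 alternatives, with adjusted p up to 0.0789. None of the 5 aldehyde dehydrogenases, which oxidise rather than reduce aldehydes, rose, and the mitochondrial ALD4 fell to 10494, 8871 and 8808 at 36 mM, against 13042, 13577 and 12032 at 15 mM (-0.46 ± 0.09, adjusted p = 0.00464). Without centring and with quantile normalization, ALD4 did not pass (adjusted p up to 0.0613), and 0 aldehyde dehydrogenases fell.

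**Figure D3:**
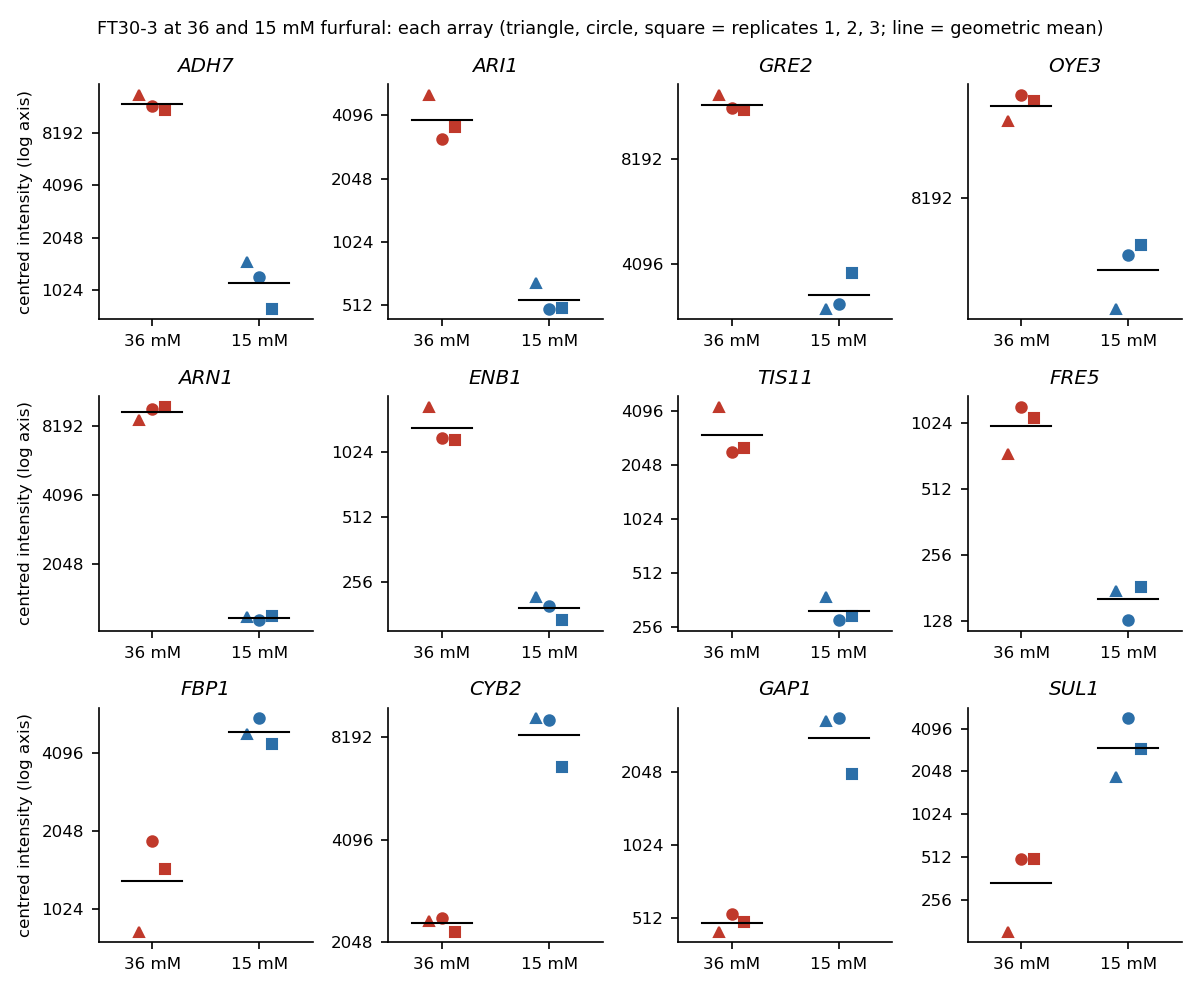
Centred intensity (log axis) of 12 genes on each FT30-3 array at 36 mM (left, red) and 15 mM (right, blue); triangles, circles and squares are replicates 1, 2 and 3 and lines are geometric means. Aldehyde reduction is in the top row, iron genes in the middle row and genes that fell in the bottom row. All 12 are called genes and their groups do not overlap, which also holds for 594 of the 600 higher and 608 of the 611 lower genes. Over all 5449 genes it holds for 41.7%.

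Genes that supply NADPH had a median near 0. Of 21 measured, 3 rose (14.3%) and 2 fell (9.52%), near the 11% and 11.2% over all genes. The median was 0.02, and the counts were 2 and 2 without replicate 1 at 36 mM and 8 and 1 before centring. ZWF1 and GND1, which encode the NADPH-forming enzymes of the oxidative pentose phosphate pathway, were not called (0.28 ± 0.11, adjusted p = 0.085, and 0.04 ± 0.07, adjusted p = 0.687). None of the 5 oxidative genes passed, and before centring 4 did. IDP2, the cytosolic NADP-dependent isocitrate dehydrogenase that is induced on non-fermentable carbon, read 2682, 3618 and 3132 at 36 mM, against 7570, 7482 and 6015 at 15 mM (-1.16 ± 0.14, adjusted p = 0.000254). YEF1, an ATP-dependent kinase that makes NADPH from NADH, rose to 7597, 6556 and 6479.7 at 36 mM, against 3975, 4331 and 5062 at 15 mM (0.63 ± 0.10, adjusted p = 0.00188).

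Some iron uptake genes were among those with the largest rises. All 7 genes of siderophore uptake rose, with a median of 2.39 (6 of 7 without replicate 1 at 36 mM, where FIT1 did not pass). ARN1, a siderophore-iron transporter (YHL040C, chromosome VIII), read 8751, 9717 and 9954 at 36 mM, against 1206, 1166 and 1223 at 15 mM (2.98 ± 0.20, adjusted p = 6.09e-06). ARN2 (YHL047C), a second transporter of this family, read 2832, 2732 and 2796 at 36 mM, against 546, 522 and 521 at 15 mM (2.39 ± 0.16, adjusted p = 4.76e-06). The arrays of each group lay close together for both genes, replicate 1 at 36 mM included. SIT1, the ferrioxamine transporter, read 4957, 5269 and 5691 at 36 mM, against 1084, 753 and 899 at 15 mM (2.55 ± 0.26, adjusted p = 0.000117). ENB1, the enterobactin transporter, read 1672, 1197 and 1168 at 36 mM, against 217, 197 and 169.6 at 15 mM (2.77 ± 0.20, adjusted p = 8.77e-06). The cell wall mannoproteins that hold siderophores rose by smaller amounts, FIT2 by 0.85 ± 0.15, FIT3 by 0.63 ± 0.11 and FIT1 by 0.42 ± 0.13. The call of FIT1 was past the threshold in all but 7 alternatives, with adjusted p up to 0.133.

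Among 7 ferric reductases, 5 rose and 0 fell, with a median of 0.64 and the same counts without replicate 1 at 36 mM. FRE5 read 742, 1223 and 1082 at 36 mM, against 175, 128 and 183 at 15 mM (2.62 ± 0.37, adjusted p = 0.000702). FRE1, the main copper and iron reductase of the cell surface, read 1425, 1117 and 1890.3 at 36 mM, against 750.4, 513 and 512 at 15 mM (1.31 ± 0.28, adjusted p = 0.00691). FRE2, FRE3 and the vacuolar FRE6 rose by 0.64, 0.68 and 0.61 on the log2 scale. The genes of the high-affinity uptake complex were not among the rises. FET3, its multicopper oxidase, read 3380.5, 3625 and 3242 at 36 mM, against 3298, 3827 and 3665 at 15 mM with overlapping groups (-0.07 ± 0.17, adjusted p = 0.777). FTR1, its permease, fell to 3875, 4274 and 3922 at 36 mM, against 6805, 6983 and 6390.1 at 15 mM (-0.74 ± 0.11, adjusted p = 0.000854).

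Of 23 genes of iron store mobilisation and iron economy, 9 rose and 3 fell (8 and 3 without replicate 1 at 36 mM, and 4, 5 and 4 higher without replicates 1, 2 and 3 at 15 mM). TIS11, also called CTH2, encodes a protein that promotes decay of messenger RNAs for iron-using proteins when iron is short (YLR136C, chromosome XII). It read 4334, 2436 and 2553 at 36 mM, against 379, 279.8 and 297 at 15 mM (3.24 ± 0.27, adjusted p = 2.53e-05), the third highest change of all genes. SMF3, an exporter of iron from the vacuole, rose to 3988, 5338 and 5234 at 36 mM, against 2809, 2570 and 2835 at 15 mM (0.81 ± 0.12, adjusted p = 0.000827). The iron-sulfur scaffold gene ISU2 rose by 0.88 ± 0.15. The regulator gene AFT1, whose product activates iron uptake genes, rose by 0.58 ± 0.18, adjusted p = 0.0441, but with replicate 1 at 36 mM (2356) far above replicates 2 and 3 (1461 and 1378). Without that array its change was 0.34 and no longer passed (adjusted p = 0.0766, and 0.00923 to 0.139 over the alternatives). CCC1, which moves iron into the vacuole, fell by 0.33 on the log2 scale (past the threshold in all but 5 alternatives, with adjusted p up to 0.282, and lost without centring). GRX4, a glutaredoxin that signals iron supply, fell to 1764, 2904 and 2954 at 36 mM, against 4233, 3849 and 4407 at 15 mM (past the threshold in all but 3 alternatives, with adjusted p up to 0.0614).

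Of 26 genes for proteins that contain iron or make heme, 8 fell and 1 rose, while 3 fell before centring and 4 with quantile normalization. The median was -0.08, which was 0.12 before centring and 0.00 with quantile normalization. Without replicate 1 at 36 mM, 9 fell and 1 rose, with a median of -0.17. Against 15 mM, the medians of the list were 0.07, -0.16 and -0.18 on replicates 1, 2 and 3 at 36 mM. BIO2, the iron-sulfur enzyme biotin synthase, read 2584, 2357 and 2618 at 36 mM, against 3589.9, 4675 and 3996 at 15 mM (-0.69 ± 0.10, adjusted p = 0.000991). CTT1, the heme-containing cytosolic catalase, read 3845, 4060.1 and 4830 at 36 mM, against 9503, 7902 and 6599.8 at 15 mM (-0.91 ± 0.16, adjusted p = 0.00309). CYC7, an isoform of cytochrome c, read 5003, 8208 and 8616 at 36 mM, against 12783, 12320.1 and 11958 at 15 mM (-0.80 ± 0.17, adjusted p = 0.00687), with replicate 1 at 36 mM the lowest array. Of 18 genes of zinc and copper handling, 2 rose and 4 fell (5 and 2 before centring), against 11% and 11.2% over all genes. FRE7, a reductase gene known to respond to copper shortage (YOL152W, chromosome XV), fell to 28.3, 27.8 and 41.8 at 36 mM, against 211, 147 and 141 at 15 mM (-2.32 ± 0.31, adjusted p = 0.000537), and was above background on only 1 array at 36 mM. CCS1, the copper chaperone of superoxide dismutase, rose to 6327, 4954 and 4853 at 36 mM, against 2329, 3229 and 3117 at 15 mM (0.90 ± 0.17, adjusted p = 0.00364).

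Of 46 proteasome genes, 25 rose and 0 fell, with a median of 0.34 (24 higher and 1 lower without replicate 1 at 36 mM, and 36 and 0 before centring). The rises covered 10 of 14 genes of the 20S core, 6 of 10 of the 19S base, 3 of 9 of the lid and 6 of 13 regulators and assembly factors. RPN4, the transcription factor that drives proteasome genes, read 9774, 9205 and 9083 at 36 mM, against 5997, 6557 and 5836 at 15 mM (0.61 ± 0.09, adjusted p = 0.0008). RPT6, an ATPase of the base, read 5816, 4341 and 4371 at 36 mM, against 2754, 2748 and 2687 at 15 mM (0.81 ± 0.11, adjusted p = 0.000606), and its replicate 1 at 36 mM was the highest array. PRE3, a catalytic subunit of the core, read 6049, 5704 and 5954 at 36 mM, against 4497, 4168 and 4506 at 15 mM (0.43 ± 0.07, adjusted p = 0.00198). PUP2, another core subunit, read 5985, 5508 and 5417 at 36 mM, against 4065, 4139 and 4318 at 15 mM (0.43 ± 0.08, adjusted p = 0.00369). Neither gene's groups overlapped, which also held for nearly all called genes. The assembly chaperone genes PBA1 and ADD66 rose by 0.66 ± 0.12 and 0.48 ± 0.08. Of 20 ubiquitin system genes, 6 rose and 0 fell (4 and 0 without replicate 1 at 36 mM, 15 and 0 before centring), among them UBC4, a ubiquitin-conjugating enzyme (0.54 ± 0.09, adjusted p = 0.00255), and NPL4, a partner of Cdc48 (0.54 ± 0.10, adjusted p = 0.00357).

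Of 59 chaperone genes, 15 rose and 3 fell, with a median of 0.10 (13 and 2 without replicate 1 at 36 mM, and 7, 8 and 8 higher without replicates 1, 2 and 3 at 15 mM). In the cytosol, 6 of 10 genes of Hsp90 and its co-chaperones and 4 of 8 of the chaperonin TRiC rose. Of 10 genes of Hsp70 and its exchange factors 1 rose, of 6 Hsp40 genes 1 rose and 2 fell, and 0 of 7 mitochondrial and 0 of 11 endoplasmic reticulum chaperones passed. Whether the compartments differ was not tested. SSA2, a cytosolic Hsp70, read 6505, 4038 and 4618 at 36 mM, against 1585, 950.4 and 1678 at 15 mM (1.86 ± 0.26, adjusted p = 0.000665). HSP82, one of 2 Hsp90 genes, read 6179.7, 3932 and 4044 at 36 mM, against 2512, 1485 and 2313 at 15 mM (1.17 ± 0.23, adjusted p = 0.00516). Both have a near-identical copy that may share their signal. HCH1 and AHA1, activators of Hsp90, rose by 0.76 ± 0.10 and 0.60 ± 0.14. HSF1, which encodes the heat shock transcription factor, did not pass (0.15 ± 0.12, adjusted p = 0.373).

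The small heat shock protein gene HSP26 and HSP30, a stress gene of the plasma membrane, split the 36 mM arrays. HSP26 read 1160.2, 5355 and 4907 at 36 mM, against 722, 687 and 824 at 15 mM. HSP30 read 563, 3067 and 3446 at 36 mM, against 405, 393 and 484 at 15 mM. For both, replicate 1 at 36 mM lay just above the 15 mM arrays and replicates 2 and 3 several-fold above them. The changes were 2.07 ± 0.49, adjusted p = 0.0126, and 2.09 ± 0.58, adjusted p = 0.0262, and without replicate 1 they were 2.79 and 2.93. HSP12, a general stress gene, fell to 11077, 12721 and 15374 at 36 mM, against 17535, 16787 and 17632 at 15 mM (-0.42 ± 0.11, adjusted p = 0.0167). This call was past the threshold in all but 5 alternatives, with adjusted p up to 0.117, no centring and quantile normalization among the exceptions. That of HSP30 was past the threshold in all but 6 alternatives, with adjusted p up to 0.0834. Of 16 general stress genes, 7 fell and 0 rose (4 and 0 without replicate 1 at 36 mM, 2 and 3 before centring, and 3 and 0 with quantile normalization), including GAD1, glutamate decarboxylase (-0.73 ± 0.11, adjusted p = 0.00115), and SPI1, a cell wall protein gene (-0.61 ± 0.10, adjusted p = 0.00245).

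Redox defence genes had calls in both directions. Of 36 measured, 7 rose (19.4%) and 3 fell (8.33%), against 11% higher and 11.2% lower over all genes. Without replicate 1 at 36 mM these counts were 7 and 5. The median was -0.04, which was 0.16 before centring. SRX1, the sulfiredoxin that repairs peroxiredoxins, read 3160, 2958 and 2248 at 36 mM, against 1197, 1276 and 929 at 15 mM (1.30 ± 0.18, adjusted p = 0.000743). GTT2, a glutathione transferase, read 2597, 2774 and 2879 at 36 mM, against 1278, 1328 and 1226 at 15 mM (1.11 ± 0.12, adjusted p = 0.000152). GPX2, a glutathione peroxidase, read 3012, 4835 and 3883 at 36 mM, against 2013, 1540.3 and 1272 at 15 mM (1.28 ± 0.20, adjusted p = 0.00121). In each of these the lowest array at 36 mM exceeded the highest at 15 mM. GSH2, glutathione synthetase, and TRR1, thioredoxin reductase, rose by 0.70 ± 0.13 and 0.41 ± 0.09. The genes that fell were catalases and superoxide dismutase: CTA1, the peroxisomal catalase, read 344, 415 and 361 at 36 mM, against 1368, 1032 and 569.5 at 15 mM (-1.32 ± 0.28, adjusted p = 0.00697), besides CTT1 above and SOD1 (-0.26 ± 0.06, adjusted p = 0.0134). The call of SOD1 was past the threshold in all but 4 alternatives, with adjusted p up to 0.479, and it was lost without centring and with quantile normalization. YAP1, which encodes the main regulator of the oxidative response, did not pass (-0.36 ± 0.13, adjusted p = 0.0735), but without replicate 1 at 36 mM its change was -0.50 and did (adjusted p = 0.0121, and 0.000286 to 0.405 over the alternatives).

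Of 30 multidrug transport and membrane lipid genes, 9 rose and 1 fell, with a median of 0.18 (13 and 1 without replicate 1 at 36 mM). Of the 9 lipid and regulator genes 7 rose, besides 1 of 9 ABC transporters and 1 of 12 facilitators. Without replicate 1 at 36 mM these counts were 6, 4 and 3, and before centring 8, 4 and 5. ICT1, a lysophospholipid acyltransferase, read 8390.1, 6519 and 7254 at 36 mM, against 2512, 3400.4 and 3289 at 15 mM (1.27 ± 0.19, adjusted p = 0.000998). RTA1, a lipid-translocating exporter family member, rose to 272, 270.2 and 368 at 36 mM, against 123, 103 and 111 at 15 mM (1.42 ± 0.19, adjusted p = 0.000533). FLR1, a drug exporter of the major facilitator family, read 1526, 1626 and 1440 at 36 mM, against 521, 668 and 646 at 15 mM (1.33 ± 0.15, adjusted p = 0.000222). PDR10 rose by 1.09 ± 0.25, while PDR5, a main ABC drug pump, was not called (0.17 ± 0.08, adjusted p = 0.136). PDR12, the exporter of weak organic acids, fell to 1972, 2969.5 and 2622 at 36 mM, against 7513, 9213 and 9539 at 15 mM (-1.81 ± 0.15, adjusted p = 2.53e-05). PDR1, which encodes the master regulator of the pumps, rose by 0.48 ± 0.13, adjusted p = 0.0269, but with replicate 1 at 36 mM left out its change was 0.36 and did not pass (adjusted p = 0.0665, and 0.00269 to 0.0882 over the alternatives).

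**Figure D4:**
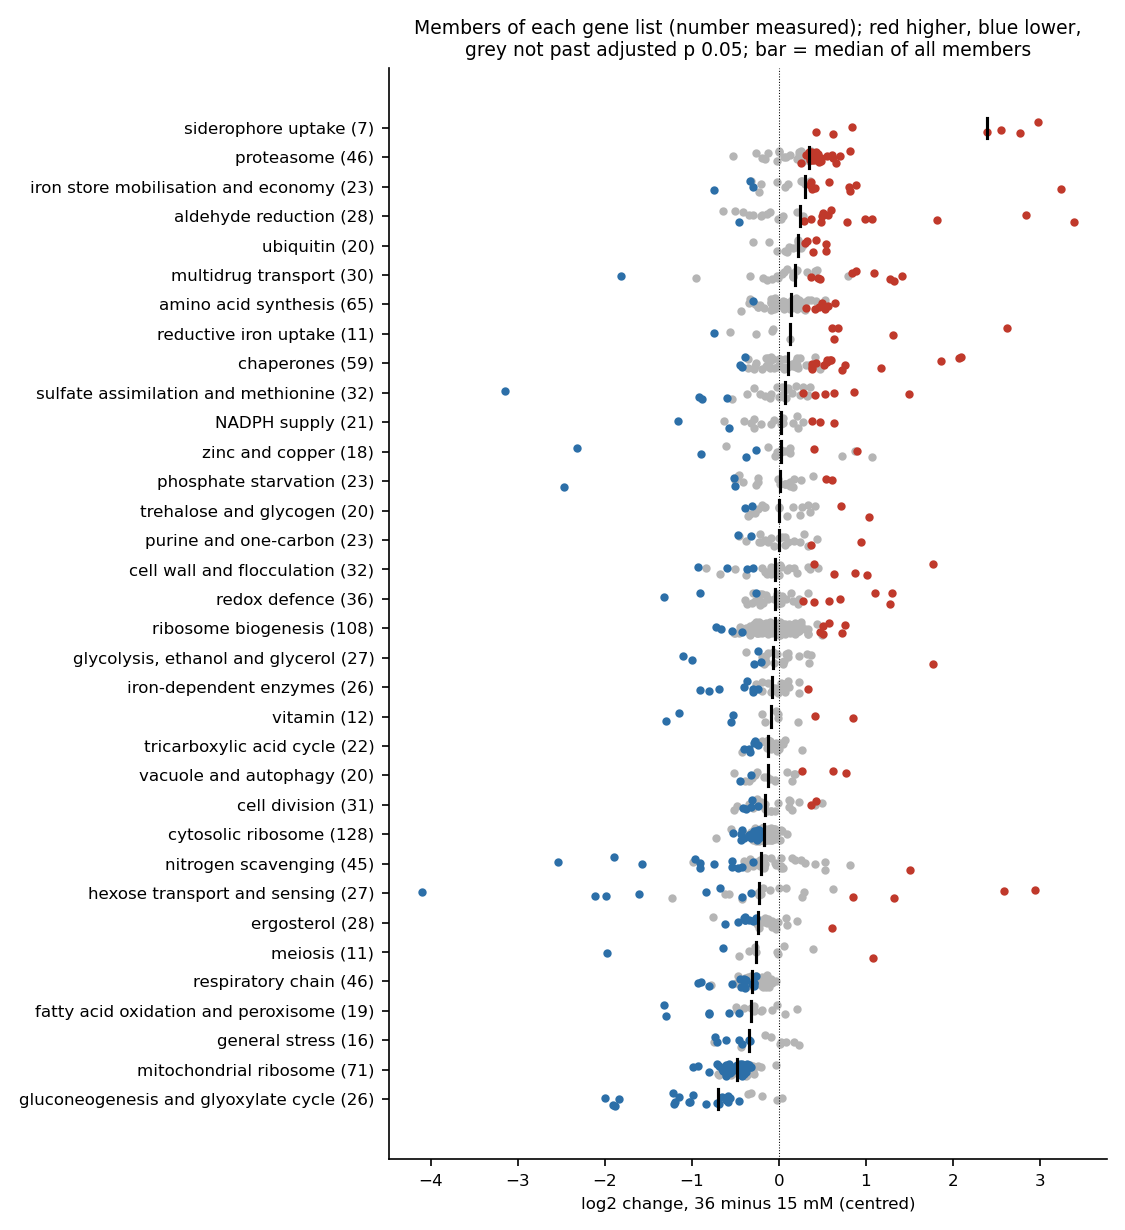
Log2 changes at 36 against 15 mM of the measured members of each gene list (points; red higher, blue lower, grey not past the threshold), with the median of all members as a bar. Siderophore uptake has the highest median (2.39) and gluconeogenesis and the glyoxylate cycle the lowest (-0.70).

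Of 26 genes that serve glucose synthesis, the glyoxylate cycle, or growth on acetate, ethanol and lactate, 20 fell and 0 rose, with a median of -0.70 (19 fell and 1 rose without replicate 1 at 36 mM, and 17 and 0 before centring). FBP1, fructose bisphosphatase, read 833, 1862 and 1455 at 36 mM, against 4845, 5578 and 4422 at 15 mM (-1.91 ± 0.24, adjusted p = 0.000378). MLS1, the malate synthase of the glyoxylate cycle (YNL117W, chromosome XIV), read 431, 789 and 579 at 36 mM, against 2068, 2804 and 2152 at 15 mM (-1.99 ± 0.27, adjusted p = 0.000617). ICL1, the isocitrate lyase of that cycle, fell by 0.98 on the log2 scale. In FBP1 the 36 mM arrays differed among themselves by over 2-fold, but all 3 lay below the 15 mM arrays. CYB2, the lactate dehydrogenase that feeds cytochrome c, read 2359, 2414 and 2194 at 36 mM, against 9312, 9200 and 6708 at 15 mM (-1.84 ± 0.17, adjusted p = 4.81e-05). All 5 carrier genes fell. ATO2, of the acetate and ammonium transporter family, read 1777, 1950 and 2346 at 36 mM, against 8145, 7494 and 6676 at 15 mM (-1.88 ± 0.12, adjusted p = 4.76e-06). ADY2, the acetate transporter, read 2389.7, 2606 and 1866 at 36 mM, against 5861, 5586 and 4256 at 15 mM (-1.19 ± 0.16, adjusted p = 0.000481). JEN1, the lactate permease, fell by 0.66 on the log2 scale. CAT8, which encodes the activator of these genes, fell to 1403, 1212 and 1254 at 36 mM, against 2189, 1938 and 1705 at 15 mM (-0.59 ± 0.13, adjusted p = 0.00781).

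Of 19 genes of fatty acid oxidation and the peroxisome, 6 fell and 0 rose (8 and 0 without replicate 1 at 36 mM). POT1, the thiolase, read 468, 642 and 729 at 36 mM, against 1827, 1328 and 1333 at 15 mM (-1.29 ± 0.20, adjusted p = 0.00132). POX1, the acyl-CoA oxidase, read 353, 316 and 356 at 36 mM, against 684, 585 and 535 at 15 mM (-0.81 ± 0.11, adjusted p = 0.000608). Neither gene's groups overlapped, which also held for nearly all called genes.

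Of 71 genes of the mitochondrial ribosome, which translates the mitochondrial genome, 47 fell and 0 rose, with a median of -0.48. Without replicate 1 at 36 mM it was again 47, with a median of -0.42, and before centring 15 fell, with a median of -0.28. All 71 had a change below 0 in the centred values. The count was 22 without replicate 1 and 22 without replicate 3 at 15 mM. RSM19, of the small subunit, read 1724, 1801 and 2224 at 36 mM, against 3339.7, 2778 and 3267 at 15 mM (-0.71 ± 0.12, adjusted p = 0.00191). MRP21 and MRPL32 had their lowest values in replicate 1 at 36 mM. MRP21, of the small subunit, read 1618, 3774 and 3805 at 36 mM, against 6531, 4825 and 5757 at 15 mM (-0.99 ± 0.29, past the threshold in all but 4 alternatives, with adjusted p up to 0.104). MRPL32, of the large subunit, read 2811, 6339 and 6562 at 36 mM, against 10297, 8195 and 9461 at 15 mM (-0.92 ± 0.27, past the threshold in all but 6 alternatives, with adjusted p up to 0.105). The genes of this list have a median coding length of 717 bases. Over all genes of more than 500 and up to 1000 bases, replicate 1 at 36 mM differed from replicates 2 and 3 by a median of -0.04. The median change of that class between 36 and 15 mM was -0.07, with 12.4% lower and 10.7% higher. Against 15 mM, the medians of the list were -0.495, -0.484 and -0.409 on replicates 1, 2 and 3 at 36 mM. The part of length in these falls was not tested.

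Of 46 respiratory chain genes, 16 fell and 0 rose, with a median of -0.30 (15 and 0 without replicate 1 at 36 mM, 4 and 0 before centring, 7 and 0 with quantile normalization). These genes have a median coding length of 454.5 bases, shorter than the mitochondrial ribosome genes, and 20 of the 46 were above an intensity of 10000. Over all genes of more than 300 and up to 500 bases, the median change was -0.21, with 16.6% lower and 5.77% higher. That median was -0.096 without replicate 1 at 36 mM and -0.009 before centring. The part of length in the respiratory chain falls was not tested. The count of respiratory chain genes that fell was 5, 9 and 8 without replicates 1, 2 and 3 at 15 mM and 10 without replicate 2 at 36 mM. All 4 genes by which NADH and glycerol phosphate enter the chain fell. GUT2, the mitochondrial glycerol-3-phosphate dehydrogenase, read 4053, 3819.9 and 3918 at 36 mM, against 7947, 7631 and 6879 at 15 mM (-0.93 ± 0.10, adjusted p = 0.000152). The external NADH dehydrogenase gene NDE1 fell by 0.43 on the log2 scale (past the threshold in all but 2 alternatives, with adjusted p up to 0.108). HAP4, which encodes an activator of respiratory genes, read 6838, 6158 and 6451 at 36 mM, against 9327, 9975 and 8998 at 15 mM (-0.54 ± 0.08, adjusted p = 0.000799). Of 22 genes of the tricarboxylic acid cycle and pyruvate entry, 6 fell and 0 rose after centring. Without replicate 1 at 36 mM these counts were 8 and 0. Before centring 0 fell and 3 rose, so no direction is given for that group.

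Bright genes as a class were lower after centring. Over all genes of mean intensity above 10000, the median change was -0.18, with 21.9% lower and 1.79% higher, and before centring it was 0.02. The lists with the largest falls, gluconeogenesis and the mitochondrial ribosome, held 3 of 26 and 0 of 71 such genes, and the respiratory chain 20 of 46. Genes over 3000 and up to 10000 were also lower after centring, with a median of -0.11, 16.0% lower and 8.88% higher. The gluconeogenesis and mitochondrial ribosome lists had median intensities in that range, 3420 and 3910. In the cytosolic ribosome, where 96 of 128 genes were above 10000, 19 fell (14.8%) and 0 rose. That share stands beside 11.2% lower over all genes and 21.9% lower over genes above 10000. The median of the list was -0.17, which was 0.03 before centring, and 1 fell with quantile normalization or without centring. The count was 12 and 8 without replicates 1 and 2 at 36 mM, and 4, 1 and 3 without replicates 1, 2 and 3 at 15 mM. Of 28 ergosterol genes, 10 fell and 1 rose, with a median of -0.24 (9 and 1 without replicate 1 at 36 mM). Before centring 1 fell, while 5, 4 and 5 fell without replicates 1, 2 and 3 at 15 mM. HMG1, one of the HMG-CoA reductase genes, read 8485, 9936 and 9781 at 36 mM, against 15279.9, 15218 and 12821 at 15 mM (-0.62 ± 0.12, adjusted p = 0.00364). Of 27 genes of glycolysis, ethanol and glycerol, 5 fell and 1 rose (4 and 3 without replicate 1 at 36 mM). Their median was -0.07, which was 0.13 before centring. GPD2, a glycerol-3-phosphate dehydrogenase, fell to 681, 391 and 499 at 36 mM, against 1013, 999 and 1054 at 15 mM (adjusted p = 0.00262). PDC6, a minor pyruvate decarboxylase with widely spread arrays at 36 mM, read 901, 1835 and 3532 at 36 mM, against 701, 435 and 475 at 15 mM (1.78 ± 0.48, adjusted p = 0.0228), past the threshold in all but 4 alternatives, with adjusted p up to 0.0756. The part of brightness in the falls of any of these lists was not tested.

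Several high-affinity nutrient transporters were among the largest falls. Of 32 genes of sulfate assimilation and methionine, 6 rose and 4 fell, against 11% and 11.2% over all genes. Without replicate 1 at 36 mM these counts were 6 and 5. The 4 that fell were among the 7 measured transporters, of which 2 fell and 1 rose without replicate 1 at 36 mM. The one with the largest change was SUL1, a sulfate permease (YBR294W, chromosome II), which read 154, 500.1 and 498 at 36 mM, against 1860.4, 4846 and 2948 at 15 mM (-3.14 ± 0.44, adjusted p = 0.000665). Replicate 1 at 36 mM was the lowest array, and replicates 2 and 3 were also below every 15 mM array. SAM3, the S-adenosylmethionine permease, fell by 0.92 on the log2 scale. The 6 that rose were enzyme genes, such as CYS3, cystathionine gamma-lyase (0.86 ± 0.16, adjusted p = 0.00384). JLP1, a sulfonate dioxygenase, read 615, 930.2 and 1214 at 36 mM, against 322, 339 and 283 at 15 mM (1.49 ± 0.21, adjusted p = 0.000702).

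Of 45 nitrogen scavenging genes, 12 fell and 1 rose, with a median of -0.21 (13 and 2 without replicate 1 at 36 mM, 7 and 4 before centring, and 7 lower without replicate 1 at 15 mM). GAP1, the general amino acid permease (YKR039W, chromosome XI), read 449, 529 and 491 at 36 mM, against 3319, 3421 and 2008 at 15 mM (-2.54 ± 0.34, adjusted p = 0.000599). PUT4, the proline permease, read 1519.7, 1742 and 1423 at 36 mM, against 7626, 6220.5 and 4107 at 15 mM (-1.90 ± 0.24, adjusted p = 0.000393). MEP2, the high-affinity ammonium permease, read 422, 414 and 423 at 36 mM, against 1871, 1238 and 834 at 15 mM (-1.57 ± 0.33, adjusted p = 0.00677). In all 3 the 36 mM arrays agreed closely and the 15 mM arrays were spread, with replicate 3 the lowest of them. GNP1, a glutamine permease, was the one that rose, to 1943, 2059 and 2198 at 36 mM, against 672, 838 and 671 at 15 mM (1.51 ± 0.25, adjusted p = 0.00186).

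Of 23 phosphate starvation genes, 2 rose and 3 fell (1 and 3 without replicate 1 at 36 mM, where VTC2 did not pass, and 6 and 1 before centring), against 11% and 11.2% over all genes. PHO84, the high-affinity phosphate transporter (YML123C, chromosome XIII), read 121, 222 and 205 at 36 mM, against 733, 1086 and 1215 at 15 mM (-2.47 ± 0.37, adjusted p = 0.000993). The rises were in VTC2 and VTC3, subunits of the polyphosphate polymerase complex, with VTC3 at 0.54 ± 0.10, adjusted p = 0.00423. VTC2 was past the threshold in all but 3 alternatives, with adjusted p up to 0.0932. None of the 5 phosphatase genes measured passed. Of 12 genes of thiamine, biotin and pyridoxine, 2 rose and 4 fell, against 11% and 11.2% over all genes. THI7, the thiamine transporter, read 879.8, 910.1 and 913 at 36 mM, against 2398, 2117 and 2136 at 15 mM (-1.30 ± 0.13, adjusted p = 8.34e-05). BIO4, of biotin synthesis, read 95.1, 106 and 86 at 36 mM, against 208, 228 and 202 at 15 mM (-1.15 ± 0.10, adjusted p = 4.69e-05).

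Hexose transporters had calls in both directions. Of 15 measured, 2 rose (13.3%) and 5 fell (33.3%), with the same counts without replicate 1 at 36 mM. Over all genes 11% rose and 11.2% fell, so the share that rose was near that of all genes. HXT9 (YJL219W, chromosome X) read 754, 938 and 619 at 36 mM, against 100.5, 85.3 and 109.6 at 15 mM (2.94 ± 0.17, adjusted p = 2.57e-06). HXT8 (YJL214W, chromosome X) read 490.1, 309.6 and 427 at 36 mM, against 48, 65 and 91.4 at 15 mM (2.59 ± 0.30, adjusted p = 0.000211). HXT2, a high-affinity glucose transporter, read 964, 1136 and 808 at 36 mM, against 5972, 3365 and 2722 at 15 mM (-1.98 ± 0.30, adjusted p = 0.00119), with 15 mM arrays that differed by over 2-fold. HXT15 (YDL245C, chromosome IV) read 5.33, 30.3 and 20.6 at 36 mM, against 309, 329 and 212 at 15 mM (-4.10 ± 0.51, adjusted p = 0.000333), and was at or below background on 2 of 3 arrays at 36 mM, so the size of its change is uncertain. HXT17 (YNR072W, chromosome XIV) read 512, 1334 and 1512 at 36 mM, against 3181, 4910.3 and 5381 at 15 mM (-2.11 ± 0.42, adjusted p = 0.00503). The family is highly similar in sequence, and the probe sets of HXT7, HXT15 and HXT17 are of a kind that can share signal, so these values are uncertain for the single genes. Of 12 sensors, kinases and regulators, 2 rose and 3 fell (3 and 2 without replicate 1 at 36 mM). HXK2, the main hexokinase on glucose, rose by 0.86 ± 0.17, adjusted p = 0.0052.

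The remaining lists had few calls or calls in both directions, and their counts stand beside 11% higher and 11.2% lower over all genes. Of 65 amino acid synthesis genes, 7 rose and 1 fell, but 3 rose and 3 fell without replicate 1 at 36 mM, and 22 rose and 0 fell before centring. HIS6, of histidine synthesis, rose by 0.65 ± 0.09, adjusted p = 0.000523. Of 108 ribosome biogenesis genes, 6 rose and 4 fell (5 and 11 without replicate 1 at 36 mM, 13 and 1 before centring). Of 32 cell wall and flocculation genes, 5 rose and 4 fell (6 and 4 without replicate 1 at 36 mM), with a median of -0.04. YPS3, a yapsin protease, read 584, 824 and 786 at 36 mM, against 151, 229 and 271 at 15 mM (1.77 ± 0.22, adjusted p = 0.000386). CWP1, a cell wall mannoprotein, read 9703, 8366 and 8108 at 36 mM, against 12991, 13367 and 13060 at 15 mM (-0.59 ± 0.08, adjusted p = 0.000654). Trehalose and glycogen genes gave 2 rises and 2 falls of 20, and vacuole and autophagy genes 3 and 2 of 20. Purine and one-carbon genes gave 2 and 2 of 23 (2 and 4 without replicate 1 at 36 mM). Cell division genes gave 2 and 5 of 31 (0 and 6 without replicate 1 at 36 mM), and meiosis genes 1 and 2 of 11. Before centring these were 8 and 0 for trehalose and glycogen, 7 and 0 for purine and one-carbon, 6 and 0 for vacuole and autophagy, 6 and 0 for cell division, and 2 and 2 for meiosis. ATG1, the kinase that starts autophagy, was among the rises (0.63 ± 0.11, adjusted p = 0.00253).

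Outside the lists, YBR090C on chromosome II, which has no standard name in the annotation used, showed the largest change of all genes. It read 1813, 2242 and 2143 at 36 mM, against 14.4, 28.3 and 18.2 at 15 mM. All 3 arrays at 15 mM were at background, so its rise is given as at least 52-fold (adjusted p = 5.38e-07). EMI1, which is needed for early meiotic gene induction, read 1190.1, 2354 and 2439 at 36 mM, against 247, 238 and 241 at 15 mM (2.97 ± 0.24, adjusted p = 2.34e-05). IMA5, an isomaltase (YJL216C, chromosome X), read 3160.3, 2365 and 3126 at 36 mM, against 607, 494 and 569 at 15 mM (2.36 ± 0.28, adjusted p = 0.000259). YNL067W-B read 138, 138 and 133 at 36 mM, against 14.2, 20.7 and 21.1 at 15 mM, and LSO1 read 79.9, 71.6 and 135 at 36 mM, against 25.3, 20.4 and 9.32 at 15 mM. Both were at background on every 15 mM array, and their rises are at least 3.46-fold for YNL067W-B and at least 2.34-fold for LSO1.

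Among the falls outside the lists, PHM7 (YOL084W, chromosome XV) read 186, 217 and 317 at 36 mM, against 5078, 2390.2 and 2517 at 15 mM (-3.73 ± 0.39, adjusted p = 0.000128). AQY1, a water channel gene known for its spore role (YPR192W, chromosome XVI), read 129, 194 and 323 at 36 mM, against 3744, 1664 and 2134 at 15 mM (-3.55 ± 0.42, adjusted p = 0.000259). For both, replicate 1 at 15 mM was the highest array, and every 36 mM array lay several-fold below the lowest 15 mM array. YGL262W read 9.14, 13.8 and 19.2 at 36 mM, against 185, 193 and 168 at 15 mM. It was at background on all 3 arrays at 36 mM and fell at least 5.74-fold. FUI1, the uridine permease, read 527, 823 and 982 at 36 mM, against 4028, 2544 and 2777 at 15 mM (-2.02 ± 0.28, adjusted p = 0.000628). LGE1, needed for ubiquitination of histone H2B (YPL055C, chromosome XVI), had tight groups, with 434, 324 and 321 at 36 mM, against 1557, 1595 and 1454 at 15 mM (-2.10 ± 0.12, adjusted p = 2.57e-06). The sporulation gene SPO1 fell by 2.26 on the log2 scale and SPR28, of the septins made in sporulation, fell by 2.23. YGR153W fell by 2.43.

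Levels were also available at 25 mM and in the parent strain. A comparison of 25 with 15 mM shares the 15 mM arrays, so levels are given side by side and no difference from 25 mM was tested. ADH7 in FT30-3 read 1483, 1226 and 804 at 15 mM, 12723 and 7884 at 25 mM and 13439, 11578 and 10996 at 36 mM, so its level at 25 mM overlapped that at 36 mM. In TMB3400 it read 508 and 408 at 15 mM and 3596, 568 and 994 at 25 mM. EMI1 at 25 mM read 1999 and 2523 in FT30-3, which also overlapped its 36 mM arrays. ARI1, by contrast, lay between its 15 and 36 mM arrays at 25 mM (1616 and 1384), and so did ARN1 (2373 and 4363) and TIS11 (613 and 969).

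For FBP1, GAP1 and MLS1 the 25 mM arrays overlapped the 15 mM arrays and lay above all 36 mM arrays. FBP1 read 4337 and 4429 at 25 mM, GAP1 4331 and 1878 and MLS1 1633 and 2518. YBR090C read 21 and 36.7 at 25 mM, close to background. PDR12 read 3637 and 3902 at 25 mM, between its 15 and 36 mM arrays, and YGL262W read 16.8 and 31.4. In TMB3400 at 15 mM, ARN1 read 1151 and 1268 and overlapped FT30-3 at the same dose, while TIS11 read 218 and 268, below all FT30-3 arrays.

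**Figure D5:**
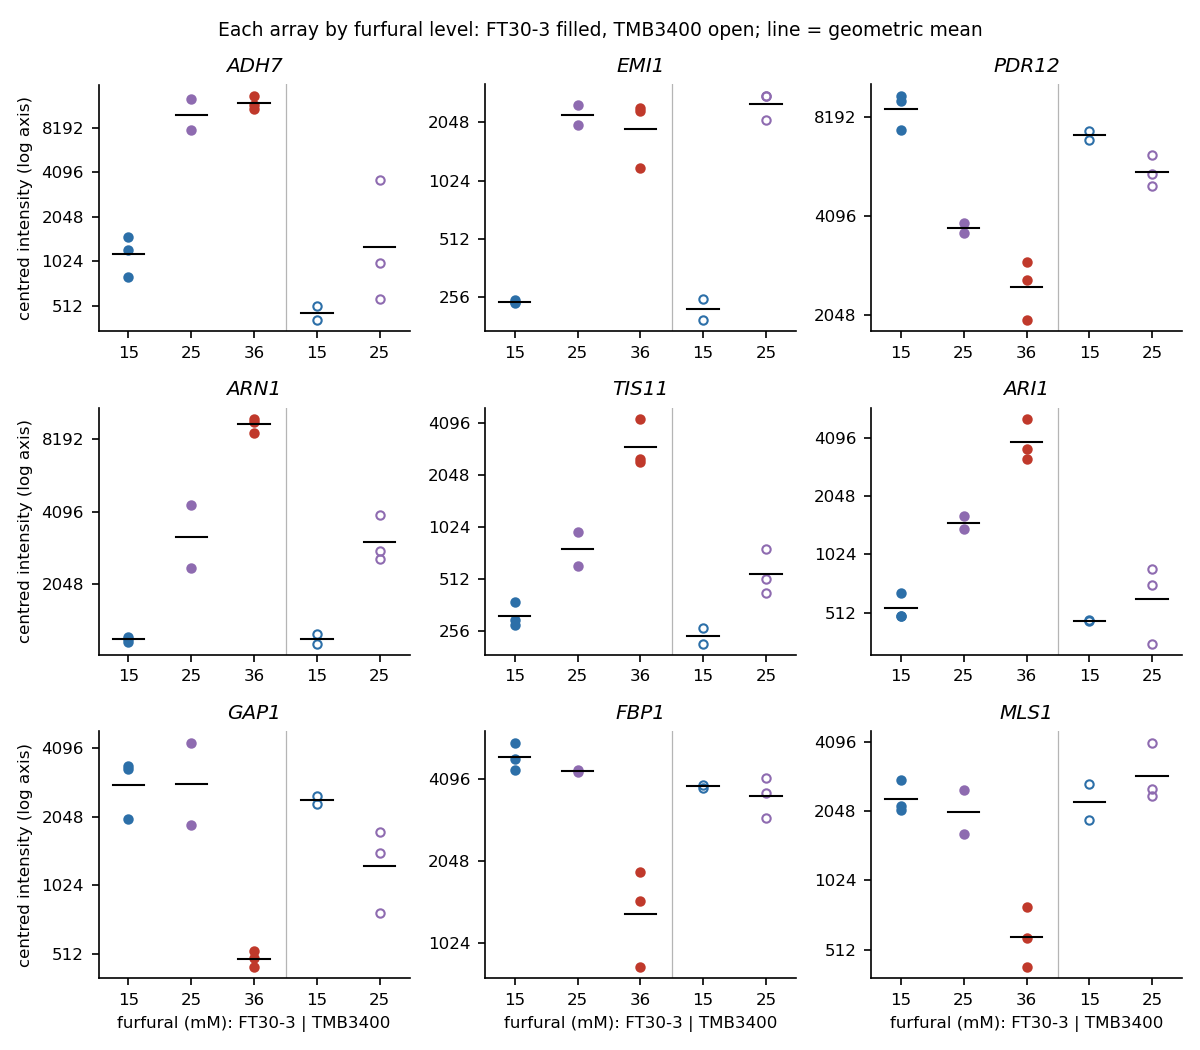
Centred intensity (log axis) of 9 genes on every array by furfural level in mM, FT30-3 at 15, 25 and 36 mM (filled) and TMB3400 at 15 and 25 mM (open); lines are geometric means. At 25 mM, ADH7 and EMI1 of FT30-3 overlap their 36 mM arrays, PDR12, ARN1, TIS11 and ARI1 lie between, and GAP1, FBP1 and MLS1 (bottom row) overlap their 15 mM arrays.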

How the data were processed

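RNA of each chemostat culture was hybridised to a 1-colour Affymetrix yeast array that also carries Schizosaccharomyces pombe probe sets. The authors deposited linear intensity values per probe set, and R 2.7.2 is the tool named, per the submitters' processing notes. Neither the labels nor the file headers state how background was corrected or how probes were normalized and summarised. Cultures are called biological replicates in the design text.

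Here 1 was added to each intensity, log2 was taken, and each array was centred on its median over 5498 S. cerevisiae probe sets. For the 47 genes with several probe sets the brightest was kept. limma 3.58.1 in R 4.3.3 fitted 1 mean per strain and furfural level over all 13 arrays, with Benjamini-Hochberg adjustment over 5449 genes. The self-test ran the same fit on simulated arrays. No filter on dim genes was set. Background is the 95th percentile of the 1746 S. pombe probe sets on each array, as deposited, and a gene at or below it on every array of 1 group has a bound as its fold change. Signal over background and the number of arrays limit the precision. Gene names, coding lengths and chromosomes are from RefSeq's annotation of S288C, assembly R64. Plots were drawn with matplotlib 3.10.9.

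The text names the 15 highest and 15 lowest called genes above background in a group, list members beside their list's counts, and a set of regulators and reductases. The comparison, gene lists and named genes were chosen with earlier results of these data known. Alternatives were no centring, quantile normalization, a fit to the 6 arrays alone, a pseudocount of 32, a filter at a mean log2 of 7, trended and robust variance, array weights, a replicate block, the mean of a gene's probe sets, and leaving out each array in turn.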

Additional observations from a re-analysis of the deposited data

Results flagged for a closer look

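Of 3470 probe sets with no gene in the annotation used and no control role, 259 were above background on all 6 arrays. They stood out because they carry signal outside the genes compared. In a fit of the same kind, 4 of the 259 were higher and 8 lower at 36 mM than at 15 mM.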

How the results depend on the processing

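The total of 1211 called genes became 2594 with array weights (1163 higher and 1431 lower) and 732 with only the 6 arrays (371 and 361). Without centring 1494 were higher and 257 lower, or 85.3% higher, against 49.5% with centring. Leaving out 1 array in turn gave 736 to 1286 in all, 384 to 602 higher and 352 to 684 lower. Over all lists together, the calls became 683 with array weights, 211 with only the 6 arrays and 209 to 350 without 1 array. Without centring, higher genes became 13 in redox defence, 17 in multidrug transport and 25 in chaperones, and lower genes 4 in the respiratory chain, 15 in the mitochondrial ribosome, 1 in the cytosolic ribosome, 1 in ergosterol and 7 in nitrogen scavenging. With quantile normalization, lower genes became 7 in the respiratory chain, 31 in the mitochondrial ribosome, 1 in the cytosolic ribosome and 3 in ergosterol. With only the 6 arrays, higher genes became 5 in iron economy, 16 in proteasome and 9 in chaperones, and lower genes 4 in the respiratory chain, 21 in the mitochondrial ribosome, 2 in the cytosolic ribosome and 5 in ergosterol. Array weights gave 14 higher in iron economy and 19 in multidrug transport, and 11 lower in fatty acid oxidation, 36 in the respiratory chain, 90 in the cytosolic ribosome, 17 in ergosterol and 19 in nitrogen scavenging, and trended, robust variance gave 59 lower in the cytosolic ribosome. The cause of these shifts was not tested.

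Without 1 array in turn, higher genes numbered 6 in siderophore uptake each time, 5 ferric reductases each time, 4 to 8 in iron economy, 9 to 13 in aldehyde reduction, 5 to 7 in redox defence, 8 to 13 in multidrug transport, 19 to 24 in proteasome and 7 to 13 in chaperones. Lower genes numbered 17 to 19 in gluconeogenesis, 4 to 8 in fatty acid oxidation, 5 to 18 in the respiratory chain, 22 to 47 in the mitochondrial ribosome, 1 to 17 in the cytosolic ribosome, 4 to 9 in ergosterol, 7 to 13 in nitrogen scavenging and 4 to 6 hexose transporters. Of 127 called genes named in the text, 20 lost their call in at least 1 alternative listed above. The other 107 kept it in every alternative that tested them. Dim genes left out by the filter at a mean log2 of 7 were not tested under that filter. Those that turned sign were not called: ADH6 was -0.0198 with array weights and between -0.0438 and 0.0703 without 1 array, GRE3 was -0.0599 with array weights and between -0.0699 and 0.125 without 1 array, FET3 was 0.126 and NHP6B 0.0748 without centring, and GND1 lay between -0.00934 and 0.072 without 1 array.

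A fit with a replicate block called 1270 genes, 626 higher and 644 lower. Deviations of arrays with the same number correlated at -0.32, -0.33 and 0.06, and 0 of 3 arrays at 36 mM correlated best with their own number. No pairing by number was seen, but so few arrays cannot exclude one.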

Other observations

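Several of the genes with the largest rises lie near each other in the RefSeq annotation of the S288C assembly R64, and their neighbours were looked up after the values had been seen. On the left arm of chromosome X, the 5 measured genes that run from HXT9 to HXT8 were HXT9, YJL218W, REE1, IMA5 and HXT8. HXT9, IMA5 and HXT8 were looked up for their large rises, so the choice of the stretch fixed that they rose. Of the other genes in it, YJL218W rose and REE1 did not pass (0.17 ± 0.09, adjusted p = 0.212), where 11% of all genes rose. YJL218W, which has no standard name in that annotation, read 382, 412 and 435 at 36 mM, against 314, 242 and 301 at 15 mM (0.53 ± 0.15, adjusted p = 0.027). Its call was past the threshold in all but 4 alternatives, with adjusted p up to 0.101, each of these 4 leaving out 1 array. The next measured gene beyond HXT8, YJL213W, read 1285, 624 and 866 at 36 mM, against 724, 583 and 540 at 15 mM and did not pass (0.54 ± 0.39, adjusted p = 0.343).

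YBR090C overlaps NHP6B in the same annotation, and NHP6B, which encodes a DNA-binding protein of chromatin, read 5873, 6908 and 7131 at 36 mM, against 7635, 6882 and 7126 at 15 mM (-0.12 ± 0.10, adjusted p = 0.383). The gene on its other side, TIM12, which encodes a small protein of mitochondrial import, read 1136, 1791 and 1919 at 36 mM, against 2380.1, 1713 and 2050.3 at 15 mM (-0.37 ± 0.21, adjusted p = 0.222). Neither neighbour passed the test.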
